A study of Mus musculus with 24 samples.

Results

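The comparison described here is the step from day 3 to day 6 of cardiac differentiation in 1 mouse embryonic stem cell line, Carma3xpA/+. Its members were taken from the column names of the deposited gene table, as the 3 libraries of that line at d6 and the 3 at d3, 6 of 24 libraries in all. Carma is a long non-coding RNA gene, and Carma3xpA/+ cells carry polyadenylation signals in 1 of its alleles, the other allele being wild type. All libraries came from strain 129/Sv, and the other line is wild type (WT). Undifferentiated cells (d0) were grown on a layer of mouse embryonic fibroblasts with serum and LIF, the cytokine that holds such cells undifferentiated. Differentiation took place in hanging drops of a medium with serum and ascorbic acid, where cells clump into embryoid bodies that form several tissues at once, and the bodies were collected at d3, d6 and d10. The labels give 3 biological replicates a group, do not say whether these were separate cultures or clones, and name no drug or growth factor added to direct the cells to the heart.

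As background, embryonic stem cells placed in embryoid bodies first pass through a state like the epiblast of the implanted embryo, then switch on genes of the primitive streak, the structure from which mesoderm and definitive endoderm arise. Streak cells respond to Nodal, WNT and FGF signals, and BMP signals then favour lateral mesoderm, which gives primitive blood, endothelium and heart. The transcription factors of heart mesoderm (among them Nkx2-5, Isl1, Hand1, Hand2, the Tbx genes and Gata4 to Gata6) come on before most proteins of the contractile apparatus.

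The gene table listed 14737 records in FPKM (fragments per kilobase of transcript, scaled to the mapped fragments of the library), of which 13373 reached 1 FPKM in at least 3 libraries and were tested. The table gives no counts, so the depth of each library is unknown. Summed FPKM lay between 270551 and 273584 in the d3 libraries and between 247608 and 253196 in the d6 libraries, with 10808 to 11611 genes at 1 FPKM or more. Pearson's r across genes between replicate libraries was 0.9918 to 0.9934 at d3 and 0.9882 to 0.9913 at d6, and 0.8587 to 0.875 between days. The labels call all samples embryonic stem cells. The 6 defining markers of such cells summed to 574 to 657 FPKM in the d3 libraries and to 57.2 to 71.6 FPKM in the d6 libraries, so the d6 libraries hold far less of them. These are bulk samples, in which fewer cells of a type and less RNA per cell cannot be told apart. Transcription of Carma itself was not analysed here.

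Between d3 and d6 the Carma3xpA/+ bodies lost epiblast and streak transcripts and gained those of primitive red cells, endothelium, heart muscle, matrix-producing mesoderm and visceral endoderm. By limma on log2(FPKM + 1), with p adjusted over all 13373 genes and called below 0.05, 5049 genes were higher at d6 (37.8% of genes tested) and 3412 were lower (25.5%), 63.3% in either direction. The median change of all tested genes was 0.11 on the log2 scale. Changes of at least 1 on that scale were called for 1790 higher and 742 lower genes, and changes of at least 3 for 135 and 42, so the large changes were mostly gains. The split of calls depended on scaling: it was 4378 higher and 4077 lower after median-of-ratios scaling (median of all genes 0.01), 3741 and 4579 after quantile normalization (median -0.06), and 5571 and 2761 with the globins taken out and the rest rescaled (median 0.21). The d3 and d6 libraries did not overlap for 76.2% of genes tested. In what follows a fold is a ratio of mean FPKM, and a log2 change carries the added 1 FPKM, so it understates the change of genes near 0.

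**Figure D1:**
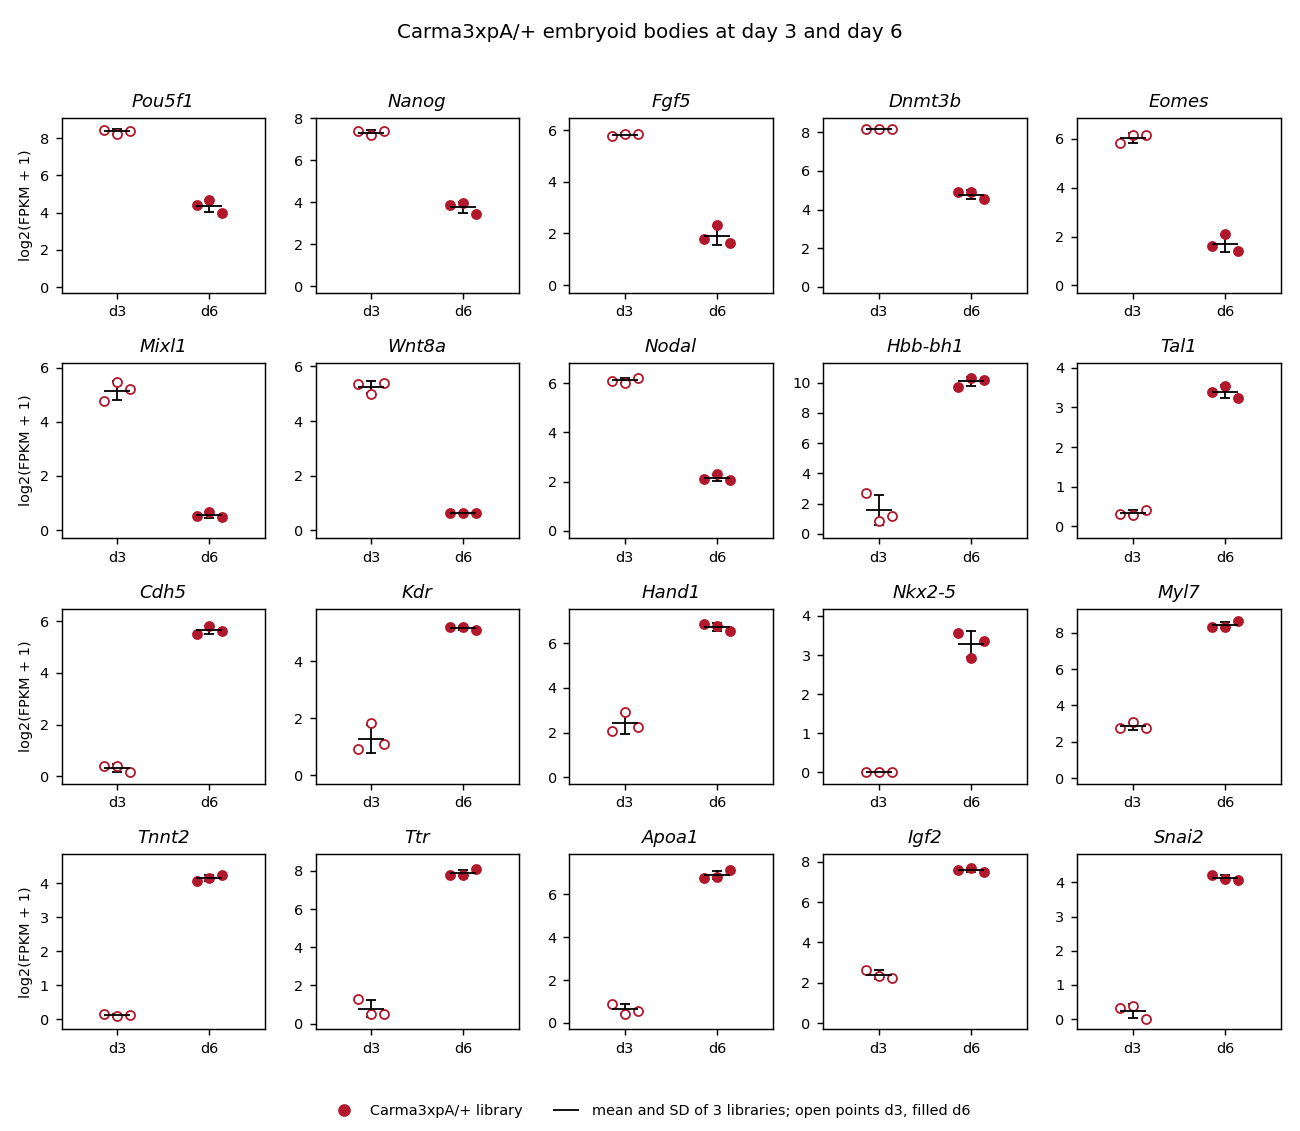
Each panel plots log2(FPKM + 1) of 1 gene in the 3 Carma3xpA/+ libraries at d3 (open points) and d6 (filled points), with the mean and SD of the 3 as bars. The first 8 genes, of the epiblast and the streak, were high at d3 and low at d6, the other 12 were the reverse, and in no panel do the days overlap.

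Genes of the undifferentiated state were still strongly expressed at d3 and had fallen by d6. Pou5f1, the core pluripotency factor Oct4, had 348, 297 and 337 FPKM at d3 and 20.4, 24.4 and 14.9 FPKM at d6. The groups lie more than 10 times apart with no overlap, a 16.4-fold fall (log2 change -3.99 ± 0.25 (SE), adjusted p = 2.85e-11). Nanog, its partner in the same network, had 169, 146 and 166 FPKM at d3 and 13.6, 14.8 and 10.01 FPKM at d6, a 12.5-fold fall (log2 change -3.56 ± 0.18 (SE), adjusted p = 1.41e-12). Sox2 fell less, from 66.9 ± 8.84 to 20.1 ± 0.402 FPKM (mean ± SD, n = 3), with an adjusted p of 1.49e-08. L1td1, an RNA-binding protein of stem cells, and Dppa2, a chromatin factor of the early embryo, fell from 220.1 ± 15.6 to 13.7 ± 1.71 FPKM and from 43.5 ± 8.92 to 1.85 ± 0.272 FPKM. Of 26 core and naive pluripotency genes tested, 20 fell and 4 rose, with a median log2 change of -1.14. Those that rose were Klf4, Tbx3, Tet2 and Tfcp2l1, each of which also acts in differentiated tissues. Klf4 went from 1.77 ± 0.277 to 3.68 ± 0.138 FPKM (log2 change 0.76, adjusted p = 0.00101), a call lost after quantile normalization (adjusted p = 0.0643). Lin28a, a repressor of let-7 microRNAs, changed least among the called members, from 137 ± 5.13 to 108 ± 10.3 FPKM (adjusted p = 0.00804). Its call was lost after quantile normalization (0.249) and with globins taken out and all libraries rescaled to the same sum (0.139).

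Most genes of the formative epiblast, high at d3, fell by d6. Fgf5, the growth factor that marks the implanted epiblast, had 54.1, 57.5 and 56.5 FPKM at d3 and 2.48, 4.04 and 2.07 FPKM at d6. Every d3 library was above 50 FPKM and every d6 library below 5, a 19.6-fold fall (log2 change -3.92 ± 0.37 (SE), adjusted p = 1.59e-08). Dnmt3b, the de novo DNA methyltransferase of that stage, had 284, 287 and 287 FPKM at d3 and 28.8, 29.1 and 22.1 FPKM at d6 (log2 change -3.39, adjusted p = 6.67e-13). Of 15 genes of this list tested, 11 fell, 1 rose and the median was -2.24. The riser was Cldn6, a tight junction protein also made by other epithelia, from 70.9 ± 2.04 to 121 ± 14.7 FPKM (adjusted p = 0.000834). Genes of germ cells and meiosis, several of which stem cells transcribe, fell too: 11 of 12 tested, with none higher and a median of -1.04. The called genes with the largest falls also held Cbr3, a carbonyl reductase (67.7 ± 3.75 to 2.12 ± 0.575 FPKM), Pla2g1b, a secreted phospholipase (40.1 ± 1.49 to 1.62 ± 0.616 FPKM), and Psors1c2 (35.1 ± 4.49 to 1.43 ± 0.137 FPKM).

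The streak genes that pass in the first days of mesoderm formation fell sharply, with exceptions among those that stay on in posterior and endodermal tissue. Eomes, a T-box factor needed for mesoderm and endoderm, had 55.2, 69.6 and 69.6 FPKM at d3 and 2.03, 3.31 and 1.66 FPKM at d6, a 27.8-fold fall (log2 change -4.32 ± 0.46 (SE), adjusted p = 9.07e-08). Mixl1, a homeobox gene of the streak, had 26.03, 43.4 and 36.3 FPKM at d3 and 0.450, 0.583 and 0.387 FPKM at d6. Wnt8a, a streak WNT ligand, had 40.1, 30.9 and 41.5 FPKM at d3 and 0.544, 0.559 and 0.552 FPKM at d6. For all of these the lowest d3 library lay more than 10 times above the highest d6 library, and the log2 changes were -4.59 for Mixl1 and -4.62 for Wnt8a. Mesp1, which marks the first heart precursors, had 8.08, 18.8 and 14.2 FPKM at d3 and 0.943, 1.36 and 0.4996 FPKM at d6. Its d3 libraries were spread over a wide range, yet the lowest of them stayed above every d6 library (log2 change -2.88 ± 0.41 (SE), adjusted p = 3.53e-06). T, the brachyury factor, fell less, with 45.96, 69.6 and 64.1 FPKM at d3 and 23.1, 29.4 and 17.6 FPKM at d6, a 2.56-fold fall (adjusted p = 0.0103). Of 21 streak and early mesoderm genes tested, 16 fell, 2 rose and the median was -1.39. The 2 that rose were Cdx2, a posterior and trophoblast homeobox factor (2.06 ± 0.402 to 8.59 ± 1.79 FPKM), and Rspo3, a WNT enhancer (3.24 ± 1.33 to 14.1 ± 1.58 FPKM). Foxa2, a factor of streak, node and endoderm, was not called (12.9 ± 0.441 to 17.1 ± 1.42 FPKM, adjusted p = 0.197), though it was with only the groups compared (0.00259) and with sample quality weights (0.0209).

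Genes for the signals of the streak fell in the same interval. Nodal, the TGF-beta family ligand that patterns the epiblast, had 67.4, 63.7 and 72.5 FPKM at d3 and 3.28, 3.91 and 3.21 FPKM at d6, a 19.6-fold fall with no overlap (log2 change -3.95 ± 0.16 (SE), adjusted p = 6.19e-14). Its co-receptor Tdgf1 fell from 224 ± 7.71 to 16.3 ± 1.48 FPKM and its feedback inhibitor Lefty2 from 38.5 ± 7.40 to 4.46 ± 0.211 FPKM. Of 15 Nodal pathway genes tested, 7 fell and 4 rose, and the risers included a second co-receptor of the same family, Cfc1 (5.01 ± 2.51 to 33.8 ± 5.97 FPKM), and the protease Furin, which processes the ligand (1.76 ± 0.228 to 12.4 ± 1.002 FPKM). Cer1, a secreted Nodal and BMP inhibitor, had 13.03, 24.4 and 17.3 FPKM at d3 and 10.3, 13.7 and 8.59 FPKM at d6, values that overlap between the days, and was not called (adjusted p = 0.107), though its fall was with sample quality weights (0.00953), without Carma3xpA/+ d0 replicate 1 (0.0365) and with only the groups compared (0.0407). Among 19 FGF pathway genes tested, 10 fell, led by ligands such as Fgf8 (27.1 ± 4.80 to 5.21 ± 0.573 FPKM) and the ETS targets such as Etv5 (77.6 ± 5.45 to 24.8 ± 2.29 FPKM). The 6 that rose (3 without Carma3xpA/+ d6 replicate 1) included receptors, with Fgfr2 going from 0.884 ± 0.124 to 6.55 ± 0.169 FPKM (log2 change 2.004, adjusted p = 1.91e-11). Of 13 WNT ligands tested 5 rose (38.5%) and 2 fell (15.4%), against 37.8% and 25.5% of all genes, with a median of 0.05 that was negative after quantile normalization (-0.03) and among the members reaching 5 FPKM (-2.15). Wnt2, a ligand of the early heart and its veins, had 0.361, 0.634 and 0.506 FPKM at d3 and 12.7, 15.9 and 13.6 FPKM at d6, a 28.1-fold rise (log2 change 3.33 ± 0.18 (SE), adjusted p = 3.76e-12). Wnt5a, which acts outside the beta-catenin route, went from 1.04 ± 0.361 to 6.29 ± 1.37 FPKM. Among 18 WNT antagonists and feedback genes 10 rose and 7 fell. Dkk1, a secreted antagonist, rose from 7.47 ± 2.49 to 22.8 ± 2.80 FPKM.

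Most BMP signalling genes rose. Bmp2 had 0.762, 1.97 and 1.36 FPKM at d3 and 19.7, 20.7 and 18.7 FPKM at d6. Bmp4 had 3.37, 5.83 and 3.83 FPKM at d3 and 29.9, 21.9 and 25.4 FPKM at d6. Bmp5 had 0.310, 0.907 and 0.489 FPKM at d3 and 19.6, 15.7 and 18.6 FPKM at d6. In these ligands every d6 library lay above every d3 library, with log2 changes of 3.16, 2.34 and 3.61 and adjusted p of 1.6e-05, 6.31e-07 and 3.62e-08. The direct target Id1 went from 25.9 ± 3.92 to 109 ± 14.96 FPKM and the inhibitory Smad6 from 0.937 ± 0.364 to 13.5 ± 0.460 FPKM. Of 22 pathway genes tested, 17 rose and 1 fell, with a median of 1.73. The 1 that fell was Fst, which encodes follistatin, a trap for activin and some BMPs, and it had 60.3, 64.3 and 65.8 FPKM at d3 and 3.88, 3.76 and 3.53 FPKM at d6 (log2 change -3.77 ± 0.23 (SE), adjusted p = 2.19e-11). Of 18 Notch pathway genes 11 rose (61.1%) and 2 fell (11.1%). Hey1, a target repressor, went from 1.46 ± 0.345 to 15.2 ± 1.32 FPKM. Of 15 retinoic acid pathway genes 8 rose (53.3%) and 3 fell (20%), against 37.8% and 25.5% of all genes. Rarb, a receptor that is itself a retinoic acid target, had 0.0155, 0.0142 and 0.0611 FPKM at d3 and 4.56, 2.98 and 5.10 FPKM at d6 (log2 change 2.32 ± 0.13 (SE), adjusted p = 8.66e-12).

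Transcripts of primitive blood rose from near 0 between the 2 days. The embryonic beta-like globin Hbb-bh1 had 5.53, 0.766 and 1.25 FPKM at d3 and 835, 1287 and 1164 FPKM at d6, the largest rise among the genes named by the rule (log2 change 8.51 ± 0.52 (SE), adjusted p = 2.83e-11). The embryonic alpha-like globin Hba-x had 2.09, 0.119 and 0.174 FPKM at d3 and 442, 716 and 422 FPKM at d6. The embryonic beta-like Hbb-y had 1.12, 0.237 and 0 FPKM at d3 and 185, 327 and 221 FPKM at d6. At d3 the levels were near 0 and uneven, with replicate 1 the highest for each of these, and at d6 all 3 libraries were at least 100 times above the highest d3 library. The adult-type Hba-a1 also rose, with 0.898, 0.618 and 0.446 FPKM at d3 and 101, 169 and 119 FPKM at d6; Hba-a1 and Hba-a2 are near-identical copies, so how fragments were divided between them is uncertain. All 8 globins tested rose, with a median of 6.23, while the share of summed FPKM that they took at d6 was 0.675% to 1.06%. The promoters of Hba-x, Hbb-y and Hba-a1 are shown because these genes lie in separate clusters on chromosomes 11 and 7 and moved together. They run from 250 bases before to 50 bases after the start site, as RefSeq places it on GRCm38.p6 (mm10), 5′ to 3′ on the gene's strand. Capitals mark CACCC, the letters of a box bound by KLF factors, GATAAG, a form of the GATA factor site, and TATAAA, the letters of a core promoter element, on either strand.
Hba-x, chr11:32276350-32276649, plus strand: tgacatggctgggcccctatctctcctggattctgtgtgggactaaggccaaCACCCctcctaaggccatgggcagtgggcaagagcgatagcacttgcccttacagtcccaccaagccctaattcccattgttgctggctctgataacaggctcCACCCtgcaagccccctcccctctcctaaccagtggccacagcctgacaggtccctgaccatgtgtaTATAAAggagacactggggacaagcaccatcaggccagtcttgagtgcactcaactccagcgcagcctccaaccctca
Hbb-y, chr7:103853158-103853457, minus strand: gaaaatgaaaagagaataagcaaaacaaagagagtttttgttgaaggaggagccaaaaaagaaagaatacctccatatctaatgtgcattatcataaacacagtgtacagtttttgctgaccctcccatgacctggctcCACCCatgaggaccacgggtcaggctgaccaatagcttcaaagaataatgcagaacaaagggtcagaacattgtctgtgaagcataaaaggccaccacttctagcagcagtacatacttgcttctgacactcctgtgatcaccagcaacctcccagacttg
Hba-a1, chr11:32283422-32283721, plus strand: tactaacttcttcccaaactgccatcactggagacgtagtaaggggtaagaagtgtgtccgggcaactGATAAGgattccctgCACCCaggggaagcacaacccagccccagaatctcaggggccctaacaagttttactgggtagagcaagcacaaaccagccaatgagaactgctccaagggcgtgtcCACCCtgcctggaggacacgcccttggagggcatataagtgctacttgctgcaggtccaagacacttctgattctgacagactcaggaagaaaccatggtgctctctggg
CACCC was found at positions -198 and -95 of Hba-x, at -111 of Hbb-y and at -167 and -60 of Hba-a1, counting from the start site. GATAAG was found at -182 of Hba-a1 and not in the windows of the other 2, and TATAAA at -28 of Hba-x alone. Other forms of the GATA factor site were not searched. None of these matches overlapped another. Over all 32851 windows of that length in the table, 57.5% held CACCC, 7.44% held GATAAG and 13.6% held TATAAA, and among the 9 windows of listed globin genes the shares were 66.7%, 44.4% and 22.2%. A match of letters is a description of the sequence and not a measured binding site.

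The regulators and membrane proteins of red cells came on with the globins, from lower levels. Tal1, the factor needed to make any blood cell, had 0.247, 0.224 and 0.333 FPKM at d3 and 9.56, 10.7 and 8.43 FPKM at d6, a 35.7-fold rise (log2 change 3.05 ± 0.14 (SE), adjusted p = 4.04e-13). Gata1 had 0.337, 0.527 and 0.170 FPKM at d3 and 3.26, 5.26 and 3.66 FPKM at d6. Klf1, the factor that binds CACCC boxes of globin genes, had 0.268, 0.248 and 0.305 FPKM at d3 and 2.34, 4.38 and 2.96 FPKM at d6. For both, every d6 library lay above every d3 library, with log2 changes of 1.90 and 1.70. Etv2, the ETS factor at the head of the blood and endothelial path, was already present at d3 and had 5.77, 6.73 and 5.78 FPKM at d3 and 9.54, 10.8 and 8.81 FPKM at d6. The groups do not overlap but lie close together (log2 change 0.60, adjusted p = 0.0192), and the call was lost without Carma3xpA/+ d3 replicate 1 (0.0544), d3 replicate 3 (0.0537) or d6 replicate 2 (0.0693), with a pseudocount of 0.1 (0.0566) and after quantile normalization (0.103). Of 16 hematopoietic transcription factors tested, 15 rose and 1, Myb, fell, with a median of 1.81. Myb is needed for definitive rather than primitive blood. Alas2, the red cell enzyme that starts heme synthesis, had 0.102, 0 and 0.0910 FPKM at d3 and 9.18, 14.2 and 10.4 FPKM at d6, a rise of 3.505 on the log2 scale with no overlap between the days. Of 14 membrane and surface genes 11 rose (78.6%) and 3 fell (21.4%). Of 15 heme synthesis and iron import genes 8 rose (53.3%) and 4 fell (26.7%), against 37.8% and 25.5% of all genes. Of 14 macrophage and platelet genes tested 5 rose (35.7%) and none fell, with a median of 0.26. The shares of all genes were 37.8% and 25.5%. The 5 macrophage and platelet markers in the table summed to at most 0.51 FPKM at d3 and to 5.63 to 7.02 FPKM at d6. Only 2 of these markers averaged 1 FPKM or more at d6. C1qa was at 0 in every library of both days.

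Endothelial genes rose, with 1 exception among those tested. Cdh5, the VE-cadherin of endothelial junctions, had 0.328, 0.304 and 0.111 FPKM at d3 and 45.2, 55.3 and 49.2 FPKM at d6, a 202-fold rise (log2 change 5.35 ± 0.17 (SE), adjusted p = 4.14e-15). Kdr, the VEGF receptor that marks blood, endothelial and heart precursors, had 0.872, 2.57 and 1.14 FPKM at d3 and 35.7, 35.99 and 33.3 FPKM at d6. Tie1, an endothelial receptor kinase, had 0.0832, 0.0227 and 0 FPKM at d3 and 17.7, 19.2 and 18.7 FPKM at d6. In each the d6 libraries agreed within a factor of 1.3, while the d3 libraries were low and uneven. Pecam1, which stem cells also express, started higher and went from 4.30 ± 0.383 to 19.4 ± 2.02 FPKM. Of 25 endothelial genes tested 24 rose, with a median of 3.08. The 1 that fell was Apln, the apelin peptide, with 13.1, 15.9 and 16.4 FPKM at d3 and 3.79, 2.93 and 3.502 FPKM at d6, whereas its receptor Aplnr rose from 3.59 ± 1.48 to 36.4 ± 2.53 FPKM (adjusted p = 3.69e-07). Vegfa, the growth factor for these cells and a hypoxia target, had 1.18, 1.41 and 1.25 FPKM at d3 and 39.8, 28.4 and 41.5 FPKM at d6, a 28.6-fold rise (log2 change 4.03 ± 0.19 (SE), adjusted p = 7.36e-13). Of 31 records of glycolysis and hypoxia genes tested, 24 rose and 1 fell, with a median of 0.96. The summed level of 5 endothelial markers went from 4.29 to 5.57 FPKM at d3 to 93.7 to 110 FPKM at d6, below the 1490 to 2378 FPKM of the red cell markers.

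The transcription factors of heart mesoderm were almost all switched on by d6. Hand1, a helix-loop-helix factor of left ventricle and extraembryonic mesoderm, had 3.15, 6.68 and 3.74 FPKM at d3 and 116, 110.4 and 92.8 FPKM at d6, a 23.6-fold rise (log2 change 4.33 ± 0.51 (SE), adjusted p = 3.51e-07). Hand2 had 0.466, 0.913 and 0.422 FPKM at d3 and 30.9, 29.1 and 28.7 FPKM at d6 (log2 change 4.27 ± 0.16 (SE), adjusted p = 4.49e-14). Nkx2-5, the homeobox factor of committed heart cells, was listed at 0 in all 3 d3 libraries and at 10.8, 6.59 and 9.25 FPKM at d6 (log2 change 3.28 ± 0.17 (SE), adjusted p = 1.76e-12). Isl1, the factor of the second heart field, went from 0.186 ± 0.0958 to 9.80 ± 2.003 FPKM and Tbx5, of the first heart field, from 0.0205 ± 0.0215 to 4.55 ± 0.273 FPKM. Gata4 was present at d3 and had 1.54, 4.16 and 2.41 FPKM at d3 and 26.6, 26.5 and 24.4 FPKM at d6, with the d3 libraries farther apart as ratios than the d6 libraries (log2 change 2.92 ± 0.55 (SE), adjusted p = 0.000119). Of 28 cardiac transcription factors tested, 27 rose and none fell, 1 did not pass, and the median was 2.36. The records of this list summed to 14.9 to 24.5 FPKM at d3, so falls had little room. Among members reaching 5 FPKM in at least 3 libraries 16 rose. Gata5, a GATA factor gene on chromosome 2, in the region where the Carma locus is known to lie, had 0.0369, 0 and 0.0204 FPKM at d3 and 10.98, 9.62 and 10.01 FPKM at d6, a rise of 3.46 ± 0.12 (SE) on the log2 scale. Of 21 records within 500 kb of Gata5, 19 were tested, 6 rose (31.6%) and 7 fell (36.8%), against 37.8% and 25.5% of all genes. Tcfl5, a helix-loop-helix factor of germ cells, fell most there, from 19.8 ± 2.83 to 1.73 ± 0.195 FPKM, and Slc17a9, a vesicular nucleotide transporter, went from 3.23 ± 0.564 to 1.02 ± 0.150 FPKM.

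Genes of the contractile apparatus rose as well, among them atrial and embryonic isoforms. Myl7, the atrial regulatory light chain, had 5.67, 7.45 and 5.69 FPKM at d3 and 321, 322 and 393 FPKM at d6, a 55.1-fold rise (log2 change 5.58 ± 0.31 (SE), adjusted p = 7.44e-12). Actc1, cardiac actin, had 5.71, 6.12 and 7.11 FPKM at d3 and 168, 182 and 194 FPKM at d6. Tnnt2, cardiac troponin T, had 0.113, 0.0552 and 0.0808 FPKM at d3 and 15.8, 16.7 and 18.04 FPKM at d6. All d6 libraries were more than 20 times above every d3 library for these, with adjusted p of 2.91e-11 and 3.65e-13. Myh6, the alpha myosin heavy chain, had 2.67, 2.57 and 2.93 FPKM at d3 and 26.5, 30.7 and 28.5 FPKM at d6. Myh7, the beta chain, had 0.325, 0.234 and 0.323 FPKM at d3 and 14.2, 10.04 and 13.9 FPKM at d6. Of 12 thick filament genes tested 11 rose and 1 fell, with a median of 2.87, and of 23 thin filament and Z disc genes 18 rose and 1 fell, with a median of 1.25. The members that fell, Myh3 and Tnnc2, are isoforms of skeletal muscle. Of 19 genes of excitation and calcium cycling 12 were higher and the rest mixed, 2 lower and a median of 0.71. The sodium-calcium exchanger Slc8a1 went from 0.225 ± 0.0925 to 8.52 ± 0.924 FPKM and the release channel Ryr2 from 0.114 ± 0.0190 to 1.29 ± 0.127 FPKM. Nppa, the atrial natriuretic peptide of working heart muscle, was listed at 0 in all d3 libraries and at 0.158, 0 and 0.631 FPKM at d6, and did not pass (adjusted p = 0.229), though it did with a pseudocount of 0.1 (0.0101) and with sample quality weights (0.0455). Of 10 smooth muscle genes 8 rose and none fell; Acta2, which early heart muscle also makes, had 3.05, 4.07 and 3.79 FPKM at d3 and 153, 170.0 and 190.4 FPKM at d6. The 7 cardiomyocyte markers summed to 15.0 to 16.7 FPKM at d3 and to 566 to 680 FPKM at d6.

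**Figure D2:**
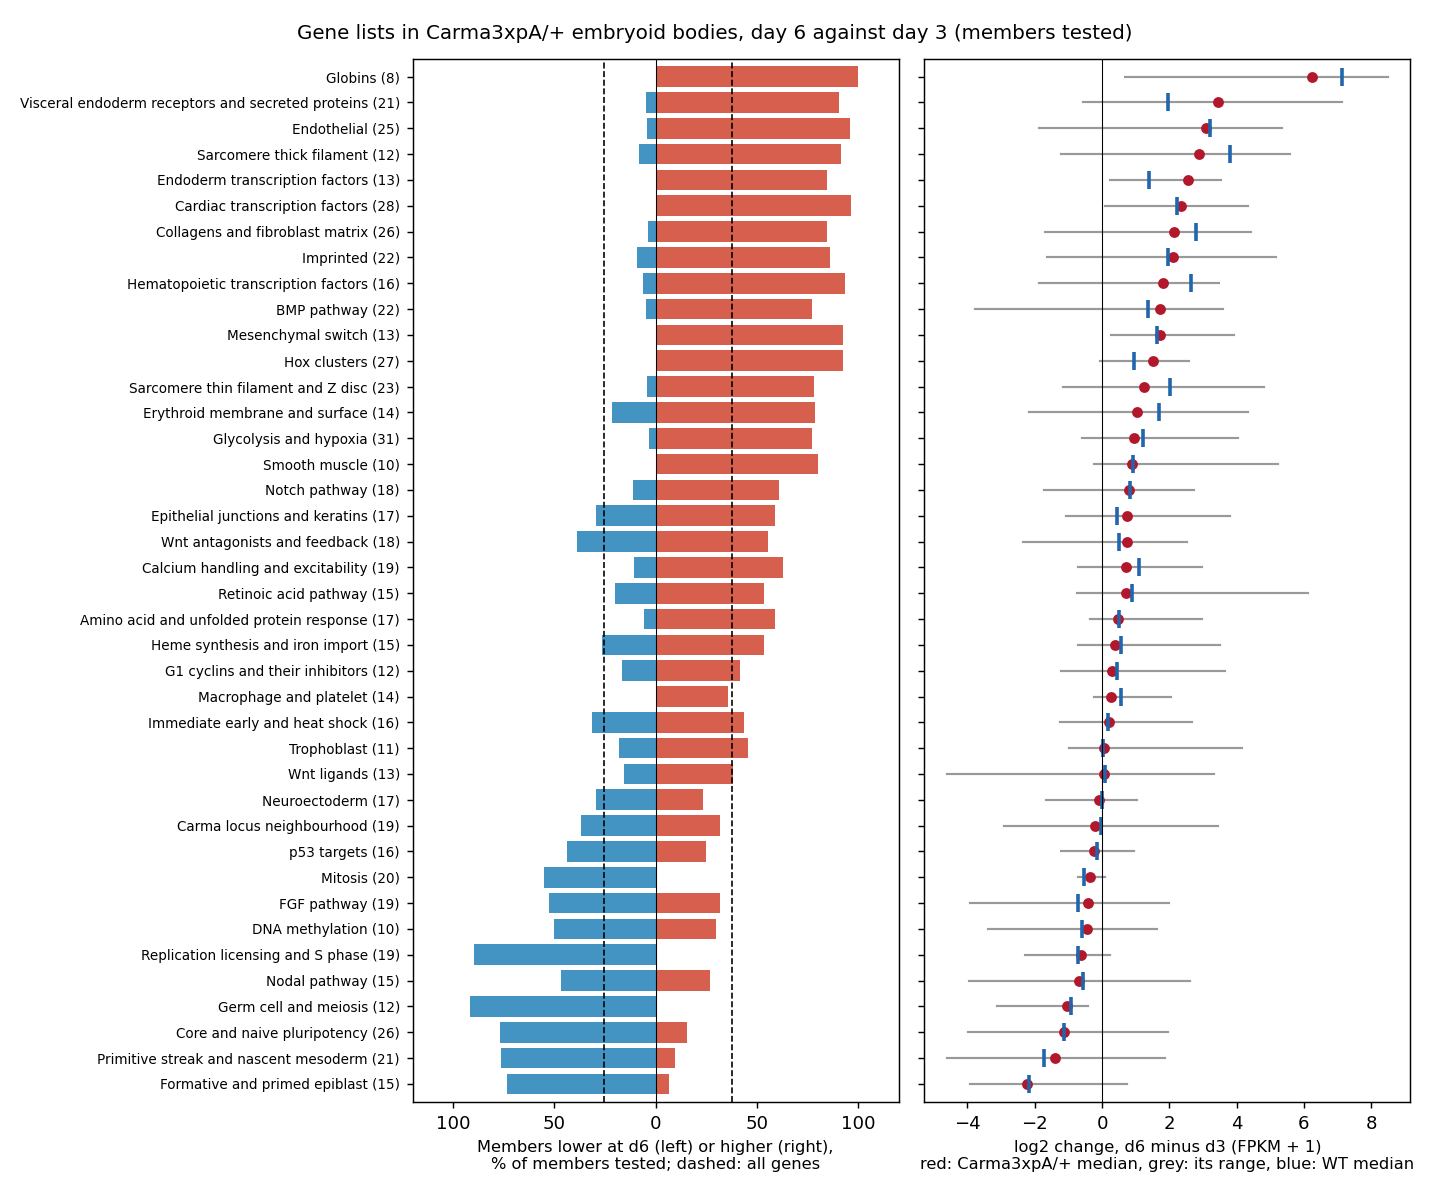
Left, the percent of tested members of each list (number tested in brackets) that were lower (blue, to the left) or higher (red, to the right) at d6 in Carma3xpA/+, with dashed lines at the 25.5% and 37.8% of all genes. Right, the median log2 change (red point) and range (grey) of each list, with the WT median as a blue bar; globins, visceral endoderm and endothelium have the highest medians, and the formative epiblast and streak lists the lowest.

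Matrix and mesenchymal genes mostly rose. Col1a1, the main fibrillar collagen chain, had 0.828, 1.12 and 1.12 FPKM at d3 and 39.8, 50.2 and 37.8 FPKM at d6. Col4a1, of basement membranes, had 4.63, 5.11 and 4.24 FPKM at d3 and 72.7, 74.9 and 74.1 FPKM at d6. The collagen-crosslinking enzyme Loxl2 had 1.06, 0.927 and 0.939 FPKM at d3 and 45.5, 30.6 and 43.96 FPKM at d6 (log2 change 4.36 ± 0.15 (SE), adjusted p = 9.38e-15). Of 26 collagen and fibroblast matrix genes tested 22 rose and 1 fell, with a median of 2.13. The 8 fibroblast markers, which also mark the feeder cells under the d0 cultures, summed to 7.25 to 9.21 FPKM at d3 and to 79.6 to 104 FPKM at d6, and their part in these rises was not tested. Snai2, a repressor active in cells leaving an epithelium, had 0.245, 0.295 and 0 FPKM at d3 and 17.6, 16.3 and 15.9 FPKM at d6, a 92.3-fold rise (log2 change 3.91 ± 0.14 (SE), adjusted p = 1.38e-14). The intermediate filament gene Vim went from 12.95 ± 1.80 to 106 ± 1.33 FPKM. Of 13 genes of the mesenchymal switch 12 rose and none fell. Epithelial genes split: of 17 tested, 10 rose (58.8%) and 5 fell (29.4%), against 37.8% and 25.5% of all genes. Cdh1, E-cadherin, fell from 97.8 ± 3.59 to 53.1 ± 1.62 FPKM (adjusted p = 5.24e-06), while the simple epithelial keratins rose, Krt8 with 37.99, 60.9 and 50.3 FPKM at d3 and 344, 318 and 363 FPKM at d6 and Krt19 with 6.49, 8.55 and 6.98 FPKM at d3 and 139, 81.7 and 135 FPKM at d6.

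Visceral endoderm, the epithelium that wraps the early embryo and feeds it, gave the highest median after the globins. Ttr, the thyroid hormone carrier, had 1.45, 0.415 and 0.437 FPKM at d3 and 219.6, 222 and 271 FPKM at d6, a 309-fold rise (log2 change 7.12 ± 0.43 (SE), adjusted p = 2.25e-11). Apoa1, an apolipoprotein, had 0.848, 0.345 and 0.484 FPKM at d3 and 107, 111 and 139.9 FPKM at d6. Rbp4, the retinol carrier, had 1.93, 1.31 and 1.89 FPKM at d3 and 178, 166 and 221 FPKM at d6. All d6 libraries lay far above every d3 library, with log2 changes of 6.28 and 6.13. Afp, the fetal serum protein of yolk sac and liver, had 0.351, 0.272 and 0.319 FPKM at d3 and 68.2, 124 and 106 FPKM at d6 (log2 change 6.21 ± 0.30 (SE), adjusted p = 9.91e-13). Of 21 receptors and secreted proteins of this tissue 19 rose and 1 fell, with a median of 3.43, and of 13 endoderm transcription factors 11 rose and none fell, with a median of 2.55. The 6 visceral endoderm markers summed to at most 3.62 FPKM at d3 and to 453 to 609 FPKM at d6. The promoter of Afp is shown because its rise differed between the lines (given with the WT values), from the same RefSeq table, with capitals for GTTAAT, letters found in promoters of several liver genes, and for TATAAA, on either strand.
Afp, chr5:90490464-90490763, plus strand: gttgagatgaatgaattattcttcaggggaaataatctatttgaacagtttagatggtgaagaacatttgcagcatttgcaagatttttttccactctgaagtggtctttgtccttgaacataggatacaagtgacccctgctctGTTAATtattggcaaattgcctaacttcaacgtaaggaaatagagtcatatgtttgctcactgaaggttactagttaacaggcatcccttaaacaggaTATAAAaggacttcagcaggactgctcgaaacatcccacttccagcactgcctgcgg
GTTAAT was found at position -105 and TATAAA at -7, and the matches do not overlap. GTTAAT was present in 7.1% of all windows and in 31.8% of the 22 windows of the listed visceral endoderm genes.

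Neural and trophoblast lists had medians near 0. Of 17 neuroectoderm genes tested 4 rose (23.5%) and 5 fell (29.4%), against 37.8% and 25.5% of all genes, with a median of -0.09. Tubb3, the neuronal tubulin, had 12.3, 9.75 and 10.9 FPKM at d3 and 2.35, 4.98 and 2.42 FPKM at d6, a 3.38-fold fall (log2 change -1.55 ± 0.21 (SE), adjusted p = 2.25e-06). The 5 neural markers, Tubb3 among them, summed to 12.5 to 15.4 FPKM at d3 and to 4.62 to 8.06 FPKM at d6. Most of the d3 sum was Tubb3, and only 2 of the markers averaged 1 FPKM or more at each day. Of 11 trophoblast genes 5 rose (45.5%) and 2 fell (18.2%), with a median of 0.06 that was -0.25 among the members reaching 5 FPKM. One of the risers was Plac1, a placental surface protein, with 0.966, 0.408 and 1.18 FPKM at d3 and 26.8, 41.5 and 28.6 FPKM at d6 (log2 change 4.17 ± 0.21 (SE), adjusted p = 1.53e-12). Gcm1, which marks the labyrinth of the placenta, was at 0 in all 3 d6 libraries. The 3 trophoblast markers in the table summed to 0.725 to 1.43 FPKM at d3 and to 27.4 to 42.0 FPKM at d6, nearly all of it Plac1, against 6.47 to 8.25 FPKM in WT at d6.

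Genes that place cells along the body axis and genes of growth rose broadly. Hoxb4 had 0.319, 0.332 and 0.302 FPKM at d3 and 6.51, 7.27 and 6.90 FPKM at d6, a 21.7-fold rise (log2 change 2.58 ± 0.19 (SE), adjusted p = 3.36e-10). Of 27 Hox genes tested 25 rose and none fell, with a median of 1.51. The Hox records summed to 4.67 to 5.33 FPKM at d3 and to 74.8 to 78.5 FPKM at d6, so falls had little room. Among members reaching 5 FPKM in at least 3 libraries 3 rose. Members from the front (Hoxb2) to the rear (Hoxc10) of the clusters were among those with the largest changes. Hoxa11, of the rear part of its cluster, went from 0.0806 ± 0.0734 to 3.91 ± 0.887 FPKM (adjusted p = 7.88e-12). Imprinted genes, expressed from the allele of 1 parent, gave 19 rises and 2 falls among 22 tested, with a median of 2.11. Igf2, the fetal growth factor, had 5.24, 4.06 and 3.77 FPKM at d3 and 189, 207 and 177 FPKM at d6, a 43.9-fold rise (log2 change 5.17 ± 0.44 (SE), adjusted p = 3.14e-09). Cdkn1c, the imprinted cell cycle inhibitor p57, had 8.45, 6.48 and 6.36 FPKM at d3 and 95.8, 97.8 and 107 FPKM at d6. These act in opposite directions on growth, and for both every d6 library lay above every d3 library. Igfbp5, a binding protein for IGFs, had the highest rise, among the genes named by the rule, outside the listed blood and endoderm genes, from 0.866 ± 0.259 to 113 ± 8.55 FPKM.

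Cell cycle genes moved the other way, by smaller amounts. Ccne1, the cyclin that drives entry into DNA replication, had 76.5, 71.2 and 71.2 FPKM at d3 and 13.8, 15.9 and 12.7 FPKM at d6, a 5.16-fold fall (log2 change -2.29 ± 0.09 (SE), adjusted p = 8.15e-14). Mcm5, a subunit of the replicative helicase, had 81.9, 81.1 and 84.9 FPKM at d3 and 49.3, 49.4 and 44.9 FPKM at d6; its fall was 1.73-fold, and the day groups were each within a narrow range. Of 19 replication genes 17 fell and none rose, with a median of -0.63, and of 20 mitosis genes 11 fell and none rose, with a median of -0.36. Among 12 genes of G1 cyclins and their inhibitors 5 rose (41.7%) and 2 fell (16.7%). Ccnd2, a D-type cyclin, went from 2.46 ± 0.210 to 21.4 ± 3.10 FPKM. Of 10 DNA methylation genes 5 fell (50%) and 3 rose (30%), and of 16 p53 targets 7 fell (43.8%) and 4 rose (25%). Stress genes were mixed: Hsp90aa1, a heat shock chaperone, fell from 869 ± 44.8 to 369 ± 48.4 FPKM, whereas Atf3, a stress-induced factor, rose from 1.11 ± 0.294 to 12.6 ± 1.15 FPKM and Chac1, a target of the amino acid response, from 1.77 ± 0.502 to 20.7 ± 2.36 FPKM. Among 16 immediate early and heat shock genes 7 rose (43.8%) and 5 fell (31.2%). Among 17 genes of the amino acid and unfolded protein responses 10 rose (58.8%) and 1 fell (5.88%). Of all genes tested 37.8% rose and 25.5% fell.

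Which of these changes differed from those of the WT line was asked by testing, for each gene, the d3 to d6 change in Carma3xpA/+ minus that in WT, called here the step difference. The lines share no library in this test. The genes with the largest step differences were picked on these same values. Gaps between the lines at d3 or d6 follow in part from that choice, and the lines were not tested against each other on 1 day. In WT 4733 genes rose (35.4%) and 3305 fell (24.7%). Of 7038 genes called in both lines, 7017 had the same direction, and the changes had a Pearson's r of 0.928 across genes, which are not independent replicates. The step difference was called for 356 genes (2.66%), 105 above 0 (0.785%) and 251 below 0 (1.88%). Of the 105, 88 had risen in Carma3xpA/+, and of the 251, 112 had risen, 93 had fallen and 46 had not been called in Carma3xpA/+. This count moved with the libraries and the model. It was 213 without Carma3xpA/+ d3 replicate 1, 218 without WT d3 replicate 3, 227 without WT d6 replicate 2 and 230 without WT d3 replicate 2, and between 213 and 365 over all 12 libraries left out in turn. It was 710 without Carma3xpA/+ d0 replicate 1, which enters only through the shared estimate of spread, and 1117 with the 4 groups alone.

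**Figure D3:**
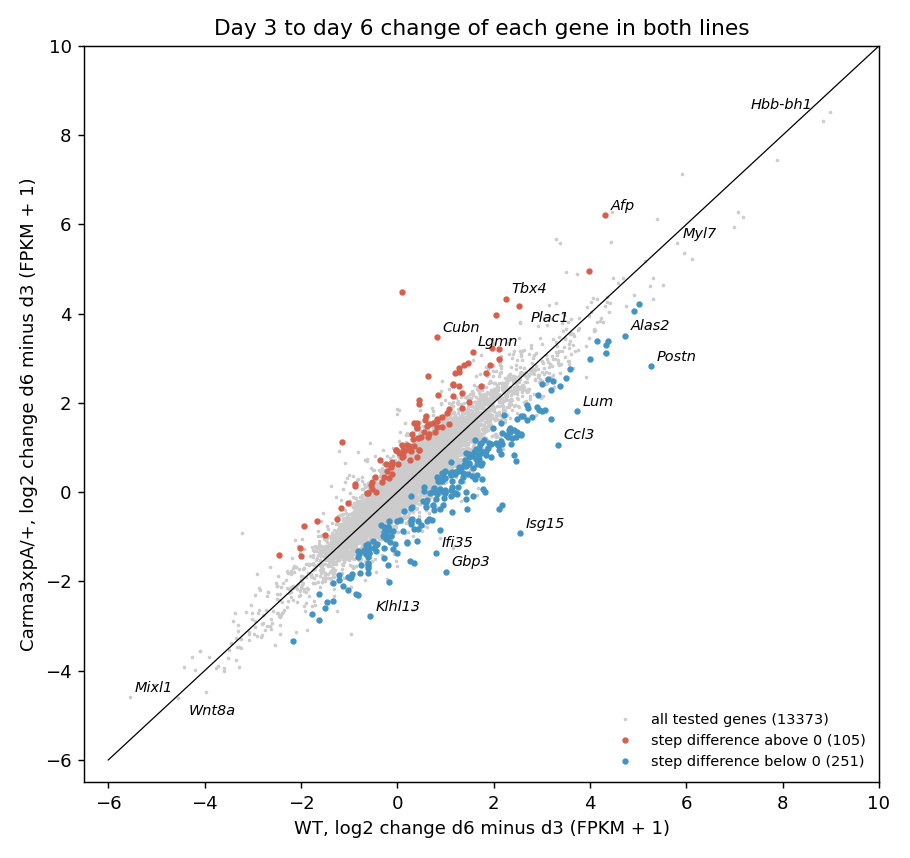
Each point is a gene, with its log2 change from d3 to d6 in WT on the x axis and in Carma3xpA/+ on the y axis, and the line marks equal change. Most of the 13373 genes lie near the line; the 105 genes with a called step difference above 0 are red and the 251 below 0 are blue.

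Visceral endoderm genes were among those that rose more in Carma3xpA/+. Cubn, the cubilin receptor with which this tissue takes up protein, had 0.110, 0.120 and 0.121 FPKM at d3 and 9.44, 13.2 and 11.97 FPKM at d6 in Carma3xpA/+. In WT it had 0.257, 0.150 and 0.123 FPKM at d3 and 0.647, 1.11 and 1.59 FPKM at d6, so the gene was near 0 in both lines at d3 and every Carma3xpA/+ library exceeded every WT library at d6 (step difference 2.65 ± 0.34 (SE), adjusted p = 0.000282). Lgmn, a lysosomal protease of the same tissue, went from 16.01 ± 1.80 to 149.7 ± 15.6 FPKM in Carma3xpA/+ and from 17.4 ± 0.616 to 54.1 ± 10.3 FPKM in WT (step difference 1.58 ± 0.33 (SE), adjusted p = 0.00976). Afp went from 0.275 ± 0.142 to 24.6 ± 4.44 FPKM in WT (step difference 1.89 ± 0.43 (SE), adjusted p = 0.0186), but this call was lost without WT d3 replicate 3 (0.0576), WT d6 replicate 3 (0.0527) or Carma3xpA/+ d6 replicate 2 (0.0527) and with a pseudocount of 0.1 (0.0802). Amn, another marker of this tissue, had a step difference above 0 (adjusted p = 0.0486). Its call was lost on leaving out any of the 12 libraries, with up to 0.115 without Carma3xpA/+ d6 replicate 3. It was also lost with a pseudocount of 0.1 (0.086) and after quantile normalization (0.0768). Of 21 genes of the visceral endoderm list 4 had a step difference above 0 and none below, against 0.785% of all genes above 0. With 1 library left out 1 to 2 had one, and with a pseudocount of 0.1 it was 1. Ttr (0.335, 0.246 and 0.537 FPKM at d3 and 68.9, 100.4 and 77.5 FPKM at d6 in WT), Apoa1, Apob and Apoc2 were not called, with adjusted p of 0.416, 0.257, 0.0569 and 0.0503. The 6 markers of this tissue summed to 453 to 609 FPKM in Carma3xpA/+ at d6 and to 128 to 172 FPKM in WT at d6, and the part of tissue amount in the calls was not tested.

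The other genes with the largest step differences above 0 were regulators and products of several tissues. Tbx4, a T-box factor of hindlimb and allantois, had 0.564, 0.255 and 0.422 FPKM at d3 and 24.2, 38.6 and 21.99 FPKM at d6 in Carma3xpA/+. The WT values were 0.121, 0.106 and 0.223 FPKM at d3 and 3.32, 4.65 and 5.74 FPKM at d6 (step difference 2.08 ± 0.24 (SE), adjusted p = 0.000121). All Carma3xpA/+ d6 libraries exceeded every WT d6 library. Tbx3, which acts in stem cells and in the heart's conduction system, went from 1.96 ± 0.800 to 10.3 ± 0.324 FPKM and in WT from 2.19 ± 1.03 to 3.25 ± 0.490 FPKM (step difference 1.51 ± 0.27 (SE), adjusted p = 0.00323). Slc13a4, a sulfate transporter of yolk sac and placenta, went from 0.691 ± 0.0693 to 25.6 ± 2.54 FPKM and in WT from 0.394 ± 0.114 to 4.88 ± 1.14 FPKM (step difference 1.91 ± 0.35 (SE), adjusted p = 0.00403). Plac1 had 0.496, 0.248 and 0.404 FPKM at d3 and 7.11, 7.91 and 6.05 FPKM at d6 in WT, each d6 library below every Carma3xpA/+ one (step difference 1.63 ± 0.30 (SE), adjusted p = 0.00406). With a pseudocount of 0.1 the calls of Slc13a4 (0.074) and Plac1 (0.382) were lost. Of 27 Hox genes 9 had a step difference above 0 and none below (0.785% of all genes are above 0); 4 to 7 did with 1 library left out and 2 with a pseudocount of 0.1. Hoxa11 had 0, 0.0301 and 0.0799 FPKM at d3 and 0.673, 0.924 and 1.01 FPKM at d6 in WT against 3.46, 4.93 and 3.33 FPKM in Carma3xpA/+ at d6 (step difference 1.32 ± 0.17 (SE), adjusted p = 0.000365). Hoxd9 went from 0.0564 ± 0.0695 to 4.56 ± 0.498 FPKM and in WT from 0.0813 ± 0.0156 to 1.40 ± 0.143 FPKM (step difference 1.24 ± 0.23 (SE), adjusted p = 0.00432), a call lost with a pseudocount of 0.1 (0.0618).

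Red cell and contractile genes included members that rose less in Carma3xpA/+ than in WT. Gata1 went from 0.113 ± 0.0372 to 7.38 ± 1.38 FPKM in WT (step difference -0.997 ± 0.21 (SE), adjusted p = 0.0117), and Klf1 from 0.305 ± 0.0562 to 7.03 ± 1.28 FPKM (step difference -0.91 ± 0.20 (SE), adjusted p = 0.0151). Alas2 had 0, 0 and 0.151 FPKM at d3 and 18.1, 31.3 and 33.7 FPKM at d6 in WT, so each WT library at d6 exceeded each Carma3xpA/+ library (step difference -1.22 ± 0.26 (SE), adjusted p = 0.0127). Of 16 hematopoietic factors 6 had a step difference below 0, against 1.88% of all genes, 4 to 6 with 1 library left out and 3 with a pseudocount of 0.1. Of 14 red cell membrane genes 5 did, 2 to 10 with 1 library left out and 2 with a pseudocount of 0.1. No globin was called: that of Hbb-bh1 was -0.48 ± 0.74 (SE), with WT values of 0.496, 2.38 and 8.65 FPKM at d3 and 1345, 2614 and 1824 FPKM at d6. The red cell markers summed to 2229 to 4464 FPKM in WT at d6, a range that overlaps the 1490 to 2378 FPKM of Carma3xpA/+, and their part was not tested. Among 12 thick filament genes 5 had a step difference below 0 and among 23 thin filament and Z disc genes 4 did, 3 to 5 and 3 to 4 with 1 library left out and 6 of each list with a pseudocount of 0.1. The 7 cardiomyocyte markers summed to 638 to 833 FPKM in WT at d6 against 566 to 680 FPKM in Carma3xpA/+, and their part was not tested. Myh7 went from 0.138 ± 0.0174 to 19.1 ± 1.40 FPKM in WT (step difference -0.75 ± 0.17 (SE), adjusted p = 0.016). Mybpc3, cardiac myosin-binding protein C, went from 0.0422 ± 0.0409 to 11.5 ± 1.18 FPKM against 0.0984 ± 0.00287 to 6.44 ± 1.000 FPKM in Carma3xpA/+ (step difference -0.83 ± 0.16 (SE), adjusted p = 0.0063). Tnni1, the slow and embryonic troponin I, went from 0.124 ± 0.143 to 33.02 ± 3.54 FPKM against 0.241 ± 0.0731 to 19.9 ± 2.01 FPKM (step difference -0.85 ± 0.18 (SE), adjusted p = 0.0103). Myh6 had 1.37, 1.02 and 1.08 FPKM at d3 and 33.1, 30.4 and 36.3 FPKM at d6 in WT (step difference -1.01 ± 0.25 (SE), adjusted p = 0.0337), but the call was lost on leaving out any of 10 of the 12 libraries, at most with an adjusted p of 0.0936 without Carma3xpA/+ d6 replicate 1. At d3 the Carma3xpA/+ mean was above the WT mean for Myh6, Myh7, Tnni1 and Mybpc3. With a pseudocount of 0.1 the calls of Alas2 (0.279), Klf1 (0.302) and Tnni1 (0.0875) were lost. Neither Nkx2-5 nor Hand1, Hand2, Isl1 or Gata5 was called, with step differences of -0.03 ± 0.24 (SE), 0.19 ± 0.72 (SE), -0.09 ± 0.23 (SE), -0.18 ± 0.29 (SE) and -0.02 ± 0.17 (SE).

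Some matrix genes and a chemokine gene also rose less. Lum, lumican, had 0.0991, 0.0306 and 0.0546 FPKM at d3 and 2.43, 3.005 and 2.77 FPKM at d6 in Carma3xpA/+. In WT it had 0, 0.0567 and 0.140 FPKM at d3 and 9.77, 14.9 and 15.7 FPKM at d6 (step difference -1.93 ± 0.20 (SE), adjusted p = 4.24e-05). Postn, periostin, had 0.855, 0.583 and 0.643 FPKM at d3 and 8.47, 12.9 and 11.96 FPKM at d6 in Carma3xpA/+. In WT the values were 0.0538, 0.0495 and 0.219 FPKM at d3 and 20.2, 54.3 and 65.00 FPKM at d6 (step difference -2.44 ± 0.42 (SE), adjusted p = 0.00304). At d6 every WT library exceeded every Carma3xpA/+ library for both, and WT replicate 1 was the lowest of its group. Col1a1 was not called, with 0.627, 0.520 and 0.706 FPKM at d3 and 23.9, 59.9 and 76.01 FPKM at d6 in WT (step difference -0.496 ± 0.62 (SE), adjusted p = 0.828). Of 26 matrix genes 4 had a step difference below 0, against 1.88% of all genes. It was 2 to 8 with 1 library left out and 3 with a pseudocount of 0.1. The fibroblast markers summed to 84.3 to 234 FPKM in WT at d6, and their part was not tested. Ccl3, a macrophage chemokine, went from 0.136 ± 0.118 to 1.39 ± 0.412 FPKM and in WT from 0.120 ± 0.136 to 11.5 ± 6.09 FPKM (step difference -2.27 ± 0.36 (SE), adjusted p = 0.00173). The macrophage and platelet markers summed to 6.53 to 8.92 FPKM in WT at d6, against 5.63 to 7.02 FPKM in Carma3xpA/+, and their part was not tested.

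A further set of genes with step differences below 0 was higher in Carma3xpA/+ than in WT at d3. Klhl13, an X-linked adaptor of an ubiquitin ligase, had 140.1, 135 and 118 FPKM at d3 and 18.7, 17.6 and 18.3 FPKM at d6 in Carma3xpA/+. WT had 25.8, 21.1 and 18.9 FPKM at d3 and 17.1, 13.4 and 13.02 FPKM at d6 (step difference -2.21 ± 0.33 (SE), adjusted p = 0.000835). Carma3xpA/+ was about 6 times above WT at d3 and close to it at d6. Ifi35, an interferon-induced protein, had 11.7, 11.9 and 9.73 FPKM at d3 and 3.29, 4.54 and 3.39 FPKM at d6 in Carma3xpA/+. WT had 2.24, 1.62 and 1.96 FPKM at d3 and 3.34, 4.13 and 5.11 FPKM at d6 (step difference -2.17 ± 0.34 (SE), adjusted p = 0.00138). It fell in 1 line and rose in the other. Gbp3 and Igtp, both interferon-induced GTPases, went from 6.98 ± 0.276 to 1.37 ± 0.610 FPKM and 12.4 ± 2.16 to 3.42 ± 0.274 FPKM in Carma3xpA/+ and from 0.826 ± 0.0758 to 2.91 ± 1.51 FPKM and 3.03 ± 0.388 to 4.20 ± 0.967 FPKM in WT, with step differences of -2.80 ± 0.56 (SE) and -1.95 ± 0.34 (SE) and adjusted p of 0.00754 and 0.00316. Isg15, a ubiquitin-like interferon target, had 5.08, 6.63 and 5.05 FPKM at d3 and 2.39, 3.06 and 1.98 FPKM at d6 in Carma3xpA/+. WT had 0.387, 1.31 and 1.97 FPKM at d3 and 4.51, 15.8 and 19.9 FPKM at d6 (step difference -3.48 ± 0.74 (SE), adjusted p = 0.0113). Its own change in Carma3xpA/+ was not called (adjusted p = 0.128), but it was with only the groups compared (0.00114), with sample quality weights (0.00593), after quantile normalization (0.0428) and without Carma3xpA/+ d0 replicate 1 (0.0477). The WT d6 libraries were widely spread. At d3 the lowest Carma3xpA/+ library was above the highest WT library for Klhl13, Ifi35, Gbp3, Igtp and Isg15. Such gaps follow in part from naming these genes by a step difference that holds the d3 values. The share of all genes with such a gap was not counted.

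**Figure D4:**
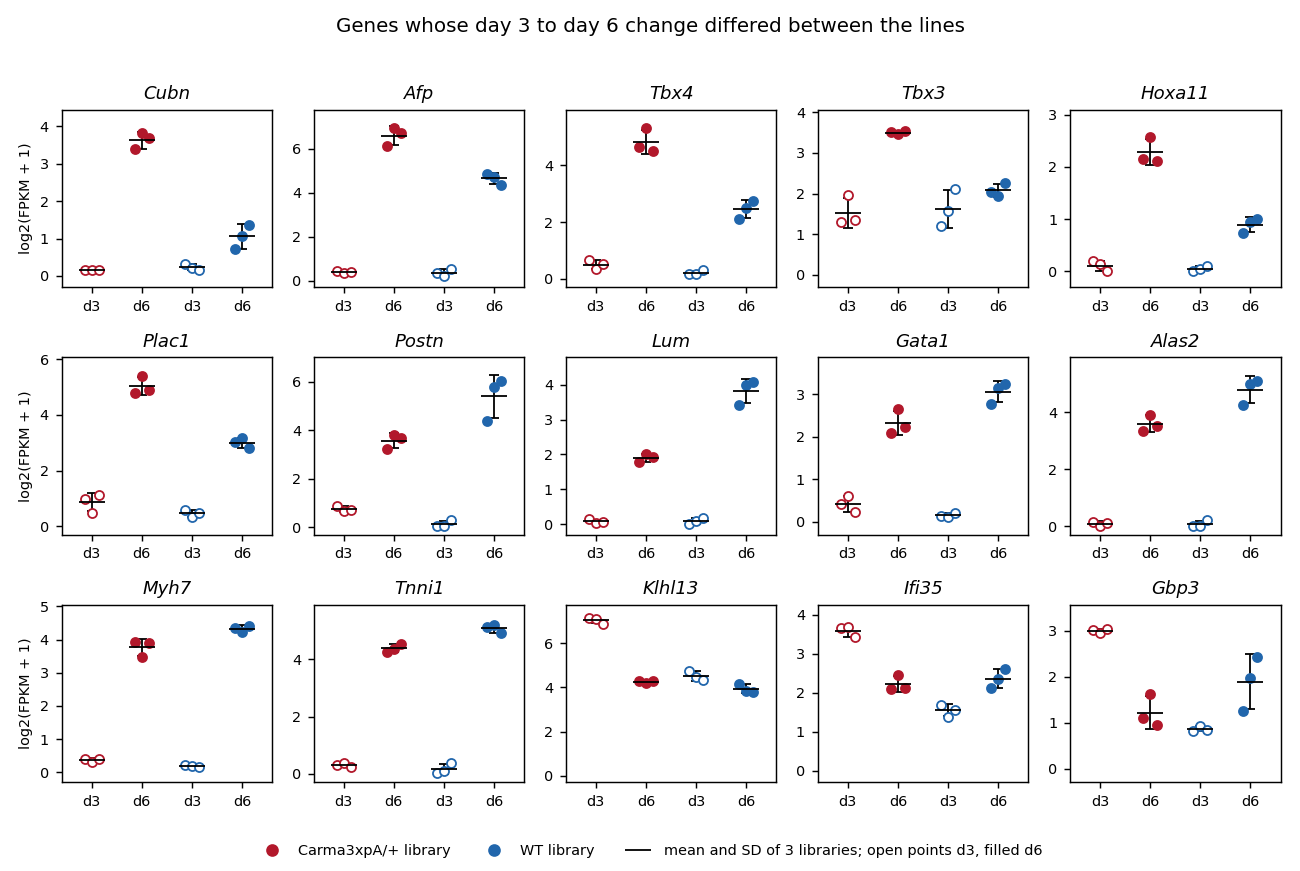
Each panel plots log2(FPKM + 1) of 1 gene in the 3 libraries of each group, Carma3xpA/+ in red and WT in blue, d3 open and d6 filled, with the mean and SD of the 3 as bars. Cubn, Tbx4 and Hoxa11 are higher in Carma3xpA/+ at d6, Lum and Postn higher in WT at d6, and Klhl13, Ifi35 and Gbp3 higher in Carma3xpA/+ at d3.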

How the data were processed

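Polyadenylated RNA was measured by stranded RNA sequencing in 24 libraries, 3 for each of 2 lines at 4 days, grouped by their titles. Per the submitters' processing notes the tools were FastQC, cutadapt, HISAT2 and StringTie and the build mm10; their versions, the annotation and the strand setting are not stated there. Gene values were deposited by the authors as FPKM, normalized to transcript length and library total, so genes that gain much RNA lower the values of others. Depth is unknown, since low values showed no whole-read steps. The deposited transcript table was not used here, and results for some genes are not reported here.

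Values were tested as log2(FPKM + 1) with limma 3.58.1 (R 4.3.3; trend, all 24 libraries, 8 group means, 16 residual degrees of freedom), for genes at 1 FPKM or more in at least 3 libraries, with Benjamini-Hochberg adjustment over 13373 genes and calls below 0.05. The script was tested on simulated data. P-values set each change against the spread between replicate libraries, pooled over all 8 groups and moderated across genes. That spread may be technical.

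The 40 gene lists (748 symbols, 712 in the table, 673 tested) and the comparison were chosen with earlier results of these data known. Genes were named by rule: the 12 largest called changes each way whose day groups did not overlap (the higher averaging 5 FPKM or more, ordinary symbols only), up to 4 called members per list, fixed lineage genes, and the 8 largest step differences each way at 5 FPKM or more. Other list members are named as examples and were chosen after their values were seen. Alternatives were other pseudocounts, filters, scalings, models and left-out libraries. Promoters are from RefSeq (GRCm38.p6); 32851 windows were searched. Figures used matplotlib 3.10.9.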

Additional observations from a re-analysis of the deposited data

Results flagged for a closer look

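The genes here had a d3 to d6 change in Carma3xpA/+ that differed from that in WT by the test of the step difference (log2 scale, ± SE, adjusted p by limma over all genes; n = 3 libraries in each of 4 groups). Above 0 were Cubn (2.65 ± 0.34 (SE), 0.000282), Tbx4 (2.08 ± 0.24 (SE), 0.000121), Slc13a4 (1.91 ± 0.35 (SE), 0.00403), Afp (1.89 ± 0.43 (SE), 0.0186), Plac1 (1.63 ± 0.30 (SE), 0.00406), Lgmn (1.58 ± 0.33 (SE), 0.00976), Tbx3 (1.51 ± 0.27 (SE), 0.00323), Hoxa11 (1.32 ± 0.17 (SE), 0.000365) and Hoxd9 (1.24 ± 0.23 (SE), 0.00432). Below 0 with a rise in both lines were Postn (-2.44 ± 0.42 (SE), 0.00304), Ccl3 (-2.27 ± 0.36 (SE), 0.00173), Lum (-1.93 ± 0.20 (SE), 4.24e-05), Alas2 (-1.22 ± 0.26 (SE), 0.0127), Myh6 (-1.01 ± 0.25 (SE), 0.0337), Gata1 (-0.997 ± 0.21 (SE), 0.0117), Klf1 (-0.91 ± 0.20 (SE), 0.0151), Tnni1 (-0.85 ± 0.18 (SE), 0.0103), Mybpc3 (-0.83 ± 0.16 (SE), 0.0063) and Myh7 (-0.75 ± 0.17 (SE), 0.016). Below 0 with a fall in Carma3xpA/+ were Klhl13 (-2.21 ± 0.33 (SE), 0.000835), Gbp3 (-2.80 ± 0.56 (SE), 0.00754), Ifi35 (-2.17 ± 0.34 (SE), 0.00138) and Igtp (-1.95 ± 0.34 (SE), 0.00316). Isg15 rose in WT and was not called in Carma3xpA/+ (-3.48 ± 0.74 (SE), 0.0113). The call of Afp was lost on leaving out any of 3 of the 12 libraries, and that of Myh6 any of 10. With a pseudocount of 0.1 the calls of Slc13a4, Afp, Plac1, Hoxd9, Alas2, Klf1 and Tnni1 were lost. These genes are not all of those with a called step difference.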

How the results depend on the processing

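Of the gene changes followed in Carma3xpA/+, 206 of 215 kept call and direction under every alternative apart from the log2 threshold, but only 18 of 36 step differences did, and 11 were lost without some 1 library of the 4 groups. Calls in Carma3xpA/+ numbered 7729 to 7935 with 1 of its d3 or d6 libraries left out (higher 4623 to 4754, lower 3096 to 3185) and 9147 (5402, 3745) without Carma3xpA/+ d0 replicate 1. A filter at 5 FPKM left 3210 higher there and 2921 in WT. At an absolute log2 change of 1 or more, Carma3xpA/+ had 2532 (1790 higher, 742 lower) and WT 2293 (1645, 648). Step differences numbered 132 (35 above 0, 97 below) at that size, 137 (42, 95) with the 5 FPKM filter, 52 above 0 with a pseudocount of 0.1, 1117 (538, 579) with the 4 groups alone, and 1621 (770, 851) with sample quality weights. With 1 library left out (each of the 12 compared, and Carma3xpA/+ d0 replicate 1) they ranged from 213 to 710 (46 to 296 above 0, 167 to 414 below), the highest values without the d0 library. After quantile normalization the change of Sox1, not called, turned to -0.0152 and the WNT ligand median to -0.0300; with the 5 FPKM filter the WNT ligand and trophoblast medians were -2.15 and -0.252. The cause was not tested. Over all alternatives 89 of 1358 list counts moved by more than 1.5 times, or to or from 0, and 97 of 679 list medians moved beyond the replicate spread. Together these moves came mostly under the log2 threshold (counts alone), the 5 FPKM filter, the pseudocount and quantile normalization. The log2 threshold, the replicate block, the compared groups alone and leaving out the d0 library could not move a median, so part of the 679 was fixed beforehand. Under quantile normalization the G1 list had 5 falls in place of 2, the trophoblast list 4 in place of 2, and risers went from 5 to 3 among WNT ligands and from 4 to 2 among p53 targets. With 1 Carma3xpA/+ library left out, besides the FGF list, single falls became 2 in the BMP list (d3 replicate 1 or d6 replicate 2) and the glycolysis list (d6 replicate 3), and the fall in the amino acid list became 0 (any but d6 replicate 1) or 2 (d0 replicate 1). Deviations from the group mean in same-numbered d3 and d6 libraries of Carma3xpA/+ had correlations of -0.0303, 0.023 and -0.0212. Differently numbered pairs ranged from -0.0495 to 0.0661. With 3 libraries a group these values cannot show whether same-numbered libraries are related. The labels do not state it, and WT pairs were not examined. With the replicate block Carma3xpA/+ had 8380 calls and the step difference 358 (108 above 0, 250 below). Depth is unknown, so its limits on genes near 0 could not be set.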
